A study of Mus musculus with 6 samples.

Results

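Scavenger receptors other than stabilin-1 were followed in endothelial cells of the mouse spleen. The 10 receptors are Stab2, Scarb1, Cd36, Scarb2, Msr1, Colec12, Scarf1, Mrc1, Cxcl16 and Lrp1. They were taken by gene symbol from the 23337 genes of the deposited expression table. No cutoff on their values was used, but the choice was made with earlier results of these data known. The cells were digested out of spleens with collagenase and sorted as CD31-positive, CD45-negative cells. The tested mice were Stab1-/- and the controls wild type, all labelled C57BL/6, with 3 sequencing libraries per genotype (KO 2, KO 3 and KO 4 against WT 1, WT 3 and WT 4). No age is given, no source used here says how the Stab1 allele was made, and none says that each library came from its own mouse, so the p-values cover no more than how far these libraries vary, which may be technical.

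Scavenger receptors are surface proteins of unrelated structure that bind modified lipoproteins, glycosaminoglycans, dying cells and other waste, and carry it into the cell for breakdown. In liver and spleen much of this clearance falls to the endothelium that lines the sinusoids and to macrophages. Stabilin-1, also called Clever-1, and stabilin-2 are paralogues that share ligands, so loss of one raises the question whether the other receptors change with it.

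Levels were read as RPKM (reads per kilobase of gene, scaled for depth), a unit inferred from the values, and are given as mean ± SD with n = 3 per genotype. On that reading they are per length and can be compared between genes. Behind them stood 40538434 to 51497892 reads counted to genes in the KO libraries and 40274200 to 50177480 in the WT libraries. Log2 fold changes are KO minus WT on the log2(RPKM + 0.5) scale, which understates changes of low genes, and a gene is said to be called when limma's p, adjusted over all 11035 genes tested by the Benjamini-Hochberg method, is under 0.05. Endothelial markers were high in every library, with summed levels of 14 pan-endothelial genes of 4428 to 5005 RPKM in KO and 4015 to 4615 RPKM in WT. Of 9 lymphocyte and pan-leukocyte markers 7 were under 1 RPKM in every library. Reticular and fibroblast markers summed to 137 to 188 RPKM in KO and 176 to 384 RPKM in WT, and 16 dissociation response genes to 6942 to 8153 RPKM in KO and 6349 to 7039.9 RPKM in WT. Of these 16, all tested, 1 was called higher in KO, Hspa8, against 0.671% of all genes tested (adjusted p = 0.0488 in limma). Hspa8 was not called in 9 of 18 alternatives, up to 0.213, among them each of KO 2, KO 3 and KO 4 left out. Of 11 genes of the reticular list tested 1 was called, Cxcl13, lower in KO, against 1.27% of all genes tested. It was at 16 ± 2.7 RPKM in KO and 62.4 ± 16.7 RPKM in WT (log2 fold change -1.91 ± 0.20 SE, adjusted p = 0.00159 in limma, called in all 18 alternatives). For both lists, their part in the results was not tested. In such bulk samples fewer cells of a type and less RNA per cell cannot be told apart.

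The targeted gene was lower where the labels put it. Stab1 had 2.32, 2.62 and 2.49 RPKM in KO 2, KO 3 and KO 4, against 21.6, 43.6 and 31.4 RPKM in WT 1, WT 3 and WT 4 (log2 fold change -3.40 ± 0.22 SE, adjusted p = 7.15e-05 in limma). A remnant of 812 to 1063 reads lay on the gene in KO libraries.

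Among the scavenger receptors other than stabilin-1, none passed the test in Stab1-/- cells. Of the 10 receptors 8 were high enough to test, and 0 of the 8 were called by limma (and 0 by voom on recovered reads), where 1.94% of all genes tested were (0.671% higher and 1.27% lower in KO). Without adjustment 2 of the 8, Cd36 and Cxcl16, had a p under 0.05, against 15.7% of all genes. KO and WT ranges lay apart for 1 of the 8, Cxcl16, against 20.3% of all genes with such a gap. The receptors' median log2 fold change was 0.07, beside 0.03 over all genes tested, with 5 positive and 3 negative. For each of the 8 the 95% interval of the change lay within a 2-fold difference in either direction, which is the precision these libraries give and does not show that levels were equal. The authors' deposited lists of 34 higher and 117 lower genes hold 0 of the 10 receptors.

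**Figure D1:**
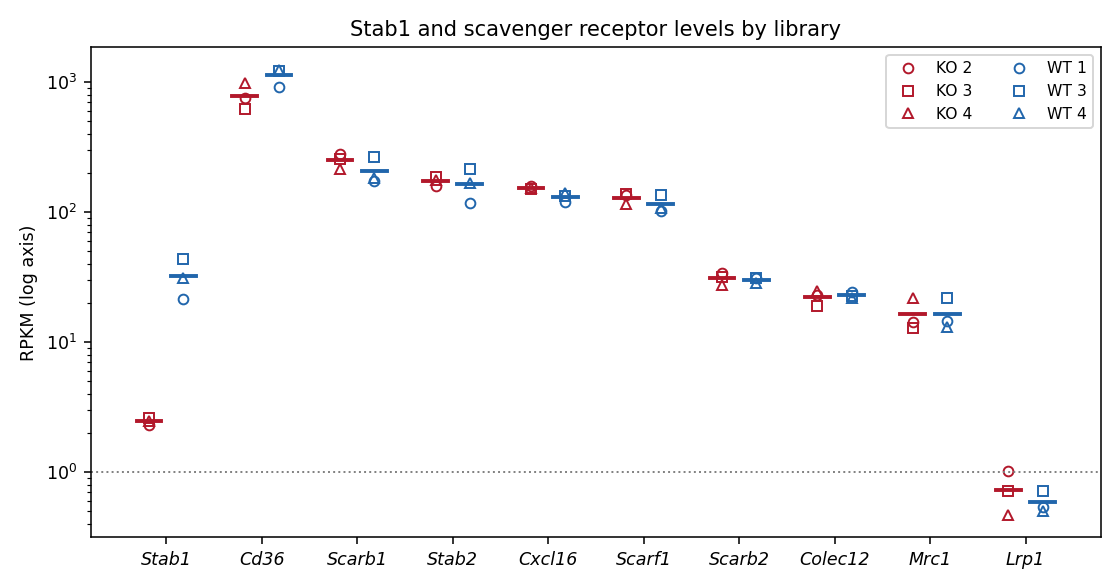
RPKM of Stab1 and 9 scavenger receptor genes in each library, on a log axis, with KO libraries (red) left of WT libraries (blue); short lines are group means and the dotted line is 1 RPKM. Stab1 separates by genotype (2.32 to 2.62 RPKM in KO against 21.6 to 43.6 RPKM in WT), while the group means of the other genes run in 1 order in both genotypes, from Cd36 down to Lrp1, with ranges from Scarb1 to Scarf1 overlapping in WT; Msr1, at 0 in some libraries, is not drawn.

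**Figure D2:**
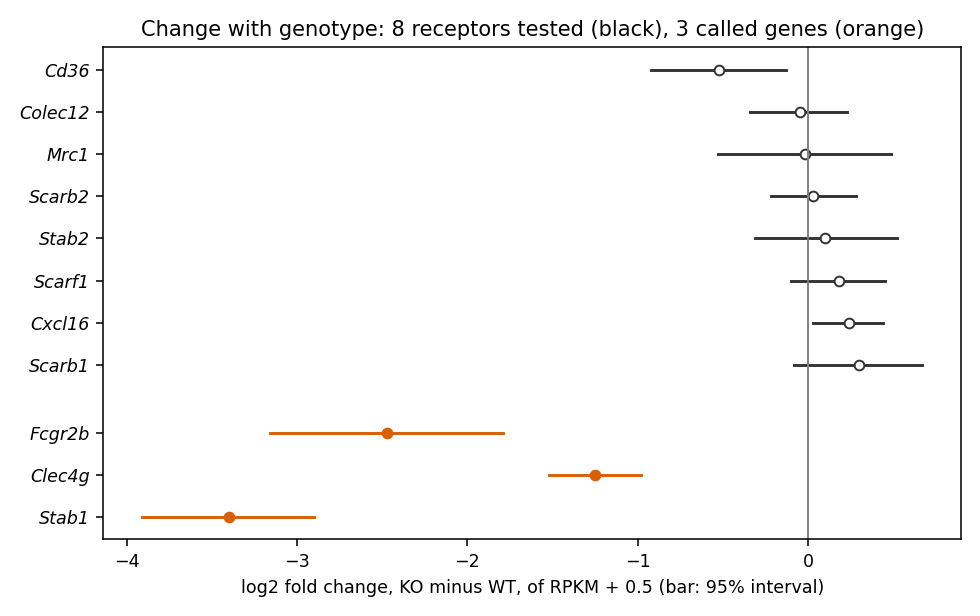
Log2 fold change (KO minus WT) with its 95% interval for the 8 receptors tested (black) and for Fcgr2b, Clec4g and Stab1 (orange); filled points are called. All 8 receptors have open points between -0.52 and 0.30.

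Stab2 encodes stabilin-2, the class H receptor of sinusoidal endothelium that clears hyaluronan and other glycosaminoglycans and binds dying cells (gene ID 192188, chromosome 10, 86841194 to 87008038, GRCm38). It had 160.3, 186 and 176 RPKM in KO 2, KO 3 and KO 4, against 117, 214 and 168 RPKM in WT 1, WT 3 and WT 4. The KO values lay inside the WT range and the spread was narrower in KO (174 ± 13 RPKM) than in WT (167 ± 48.7 RPKM). The log2 fold change was 0.10 ± 0.19 SE (95% interval -0.31 to 0.52, adjusted p = 0.806), and without WT 1 it turned to -0.13. WT 1 also stood lowest for endothelial genes as a class, its mean log2 level over the 14 pan-endothelial genes being 0.27 below the average library and that of WT 3 being 0.15 above it, and the part of this in the spread of Stab2 was not tested. Stab2 and Mrc1 are themselves markers of sinusoidal endothelium. Of 12 such markers tested 5 fell in KO, Clec4g, Fcgr2b, F8, Kitl and Cd55, against 1.27% of all genes tested. Stab2 and Mrc1 were not among them. Of the 12, 4 had a positive log2 fold change and 8 a negative one. The positive ones were Ehd3 (0.53), Wnt2 (0.40), Oit3 (0.24) and Stab2 (0.10), none of them called. The list was chosen with earlier results of these data known, so its count cannot serve as a test against that share. Over 18 alternatives the call ended for Cd55 in 6 (adjusted p up to 0.144; without WT 1, WT 3, KO 2 or KO 3 among them), for F8 in 4 (up to 0.0921; without WT 4 or KO 3 among them, and at a log2 fold change of -0.53 with GC and length trends taken out) and for Kitl in 3 (up to 0.0824; without WT 4 or KO 3 among them).

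The ratio of both stabilin genes varied less within a genotype than either level did in WT. Within a library Stab2 exceeded Stab1 69.0-fold in KO 2, 71.2-fold in KO 3 and 70.6-fold in KO 4, against 5.41-fold in WT 1, 4.92-fold in WT 3 and 5.36-fold in WT 4. In WT libraries Stab2 itself differed 1.83-fold between the highest and the lowest library and Stab1 2.02-fold. Some other endothelial genes were also lowest in WT 1 and highest in WT 3, so that this pattern was not seen in the stabilins alone. Kdr was such a gene (61.7 RPKM in WT 1, 171 RPKM in WT 3 and 116 RPKM in WT 4). Flt4 was another (28.7 RPKM in WT 1, 76.8 RPKM in WT 3 and 54.9 RPKM in WT 4). Of the pan-endothelial genes, Tie1, Robo4, Esam and Ptprb shared this order with Kdr, and the rest did not. Pecam1, Cdh5, Eng, Egfl7 and Cldn5 were lowest in WT 4. Tek, Erg and Cd34 were highest in WT 4, whereas Emcn was lowest in WT 3. Stab1 thus made up 1.41% ± 0.0208 of the summed stabilin RPKM in KO and 16.1% ± 0.723 in WT (SD, n = 3 each). The ratio does not depend on scaling between libraries. The sum of both genes was 177 ± 13.1 RPKM in KO and 199 ± 59.5 RPKM in WT, and these ranges overlapped.

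To show both paralogues side by side, the bases just upstream of each annotated gene are shown, from RefSeq (GRCm38.p6), 5′ to 3′ on the gene's strand, the minus strand in both cases. Capitals mark GGAA or its reverse complement TTCC, the core of sites for ETS factors such as Erg, searched on both strands with overlaps allowed.
Stab2, chr10:87008039-87008192: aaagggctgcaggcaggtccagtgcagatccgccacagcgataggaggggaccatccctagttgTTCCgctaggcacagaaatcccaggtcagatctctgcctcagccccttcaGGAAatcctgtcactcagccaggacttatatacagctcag
Stab1, chr14:31168652-31168891: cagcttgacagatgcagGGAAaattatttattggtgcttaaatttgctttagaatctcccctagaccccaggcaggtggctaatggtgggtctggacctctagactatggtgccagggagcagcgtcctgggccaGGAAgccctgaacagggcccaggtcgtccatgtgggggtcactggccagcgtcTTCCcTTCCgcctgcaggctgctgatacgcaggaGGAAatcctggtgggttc
The 154 bases of Stab2 hold 2 matches and the 240 bases of Stab1 hold 5. Windows of those lengths have at least 1 match in 81.7% and 92.7% of 32851 RefSeq promoters. Of these promoters 52.2% hold at least as many as Stab2 and 16.1% at least as many as Stab1. Their windows end at each promoter's listed start, whereas those of Stab2 and Stab1 end where the annotated gene begins. The shares thus compare unlike positions. The matches describe the letters and nothing more. The letters TATAAA, on either strand, are in neither window.

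**Figure D3:**
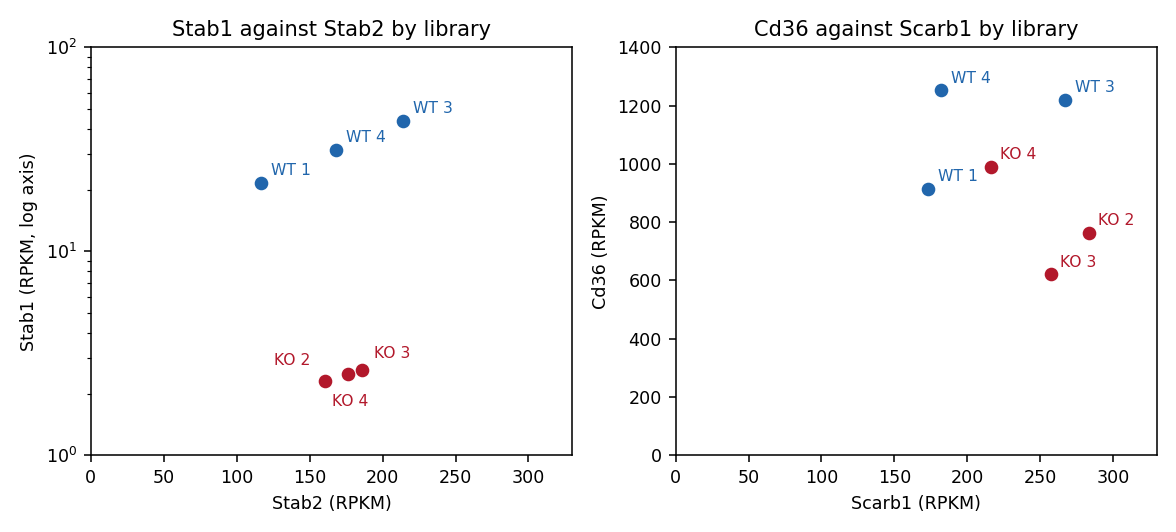
Left, Stab1 (RPKM, log axis) against Stab2 (RPKM) in each library; right, Cd36 against Scarb1 (both RPKM); KO libraries are red and WT libraries blue. On the left both genotypes lie along rising lines, at a Stab2 to Stab1 ratio of 69.0 to 71.2 in KO and 4.92 to 5.41 in WT; on the right KO 2 and KO 3 have the lowest Cd36 (762 and 621 RPKM).

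Cd36, the class B receptor for fatty acids, oxidised lipoproteins and thrombospondin, was by far the most abundant of the 10 (gene ID 12491, chromosome 5, 17781690 to 17888959). It had 762, 621 and 991 RPKM in KO 2, KO 3 and KO 4, against 915, 1219 and 1252 RPKM in WT 1, WT 3 and WT 4. Only KO 4 reached into the WT range. The means of 791 ± 187 RPKM in KO and 1129 ± 186 RPKM in WT ranked 54 in KO and 26 in WT among all genes of the table. The log2 fold change of -0.52 ± 0.18 SE (95% interval -0.92 to -0.13) was not called (adjusted p = 0.20 in limma, unadjusted p = 0.0146), and the authors' deposited table gives an adjusted p of 0.213. Cd36 took 48.5%, 43.9% and 57.4% of the summed RPKM of the 10 receptors in KO 2, KO 3 and KO 4, against 61.1%, 59.6% and 65.3% in WT 1, WT 3 and WT 4. These ranges did not overlap, but the gap was narrow and Cd36 is itself part of the sum. Levels of 20.3% of all genes tested also lay apart by genotype, and the share was not tested.

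The longest annotated Cd36 transcript has a GC content of 38.4%, below the median of 49.9% over genes tested, and once trends with GC content and transcript length were removed from each library the log2 fold change was -0.12 (adjusted p = 0.711). Of 18 alternatives 1 gave a call, library quality weights (-0.70, adjusted p = 0.00203 in limma). The weights were 0.336, 0.452 and 4.19 in WT 1, WT 3 and WT 4, and 3.115, 0.975 and 0.518 in KO 2, KO 3 and KO 4. That fit thus leaned mostly on WT 4 and KO 2. Cd36 is also made by platelets, erythroid precursors and macrophages. All 11 megakaryocyte and platelet markers had a negative log2 fold change, with a median of -0.84 beside 0.03 over all genes tested. Of these 11 markers 1 was called, Pf4, lower in KO, against 1.27% of all genes tested (not so in 2 of 18 alternatives, at 0.0772 without KO 3 and 0.109 with genes of any level tested). Their summed levels were 67.3 to 90.4 RPKM in KO and 102 to 297 RPKM in WT. Each marker was highest in WT 3, such as Tubb1 with 13.9, 38.9 and 11.7 RPKM in WT 1, WT 3 and WT 4. Of 11 erythroid markers 4 were tested and 0 called by limma, against 1.94% of all genes tested, and 1 had an unadjusted p under 0.05, against 15.7%. The 11 markers summed to 18.7 to 91.2 RPKM in KO and 35.0 to 123 RPKM in WT. The alpha-globin genes Hba-a1 and Hba-a2 were listed at 0 throughout. The beta-globin gene Beta-s had 36.7, 18.9 and 7.24 RPKM in KO 2, KO 3 and KO 4, and 33.4, 17.6 and 9.52 RPKM in WT 1, WT 3 and WT 4. The part of these cells in the level of Cd36 was not tested.

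Scarb1 and Scarb2 are the class B relatives of Cd36. Scarb1, the receptor that takes up cholesteryl ester from high-density lipoprotein (gene ID 20778, chromosome 5, 125277087 to 125341094), had 283, 257 and 216 RPKM in KO 2, KO 3 and KO 4, against 173, 267 and 182 RPKM in WT 1, WT 3 and WT 4. WT 3 lay among the KO values, and the log2 fold change of 0.30 ± 0.17 SE (95% interval -0.08 to 0.67) was not called (adjusted p = 0.412). It was 0.49 without WT 3 (adjusted p = 0.0886), 0.18 without WT 1 and 0.09 with the replicate block, with adjusted p of 0.00644 (library quality weights) to 0.786 over 18 alternatives. The ratio of Cd36 to Scarb1 was 2.69, 2.42 and 4.60 in KO 2, KO 3 and KO 4, against 5.30, 4.56 and 6.86 in WT 1, WT 3 and WT 4, so that KO 4 alone fell within the WT range. Scarb2, a lysosomal membrane protein that also sorts cargo to lysosomes (gene ID 12492, chromosome 5, 92441311 to 92505657), was among the steadiest receptors. It had 34.0, 31.6 and 27.7 RPKM in KO 2, KO 3 and KO 4, against 31.1, 31.1 and 28.7 RPKM in WT 1, WT 3 and WT 4 (log2 fold change 0.03 ± 0.11 SE, 95% interval -0.22 to 0.28, adjusted p = 0.903).

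The class A receptors split into one that was plainly expressed and one that was barely detected. Msr1, the type receptor of macrophages (gene ID 20288), had 0, 1 and 0 reads in KO 2, KO 3 and KO 4, against 0, 3 and 6 reads in WT 1, WT 3 and WT 4. That is 0.0329 RPKM or less in every library, too little to test. Colec12, a collectin with a scavenger receptor collagen domain that is found on vascular endothelium (gene ID 140792), had 23.0, 18.9 and 24.6 RPKM in KO 2, KO 3 and KO 4, against 24.3, 22.5 and 21.9 RPKM in WT 1, WT 3 and WT 4. The KO range enclosed the WT range, and the log2 fold change was -0.05 ± 0.13 SE (95% interval -0.34 to 0.23, adjusted p = 0.859). It turned to 0.24 once GC and length trends were taken out, still uncalled (adjusted p = 0.332; 0.332 to 0.978 over 18 alternatives).

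Scarf1, the class F receptor first found on endothelium as a receptor for acetylated low-density lipoprotein (gene ID 380713, chromosome 11, 75513489 to 75526582), had 135, 138 and 115 RPKM in KO 2, KO 3 and KO 4, against 103, 135 and 108 RPKM in WT 1, WT 3 and WT 4. The groups overlapped through WT 3 and KO 4 (log2 fold change 0.18 ± 0.12 SE, 95% interval -0.10 to 0.45, adjusted p = 0.509), and it was 0.29 without WT 3 and 0.10 without WT 1. Its pattern over the 6 libraries was the closest to that of Scarb1 among the 8 receptors tested (Pearson r = 0.976 on log2 values, given as a description). Such values were common, as 202 genes correlated above 0.95 with Scarf1 and 130 with Scarb1. Mrc1, the mannose receptor, a lectin of macrophages and sinusoidal endothelium (gene ID 17533, chromosome 2, 14229414 to 14332023), had 14.3, 12.9 and 21.8 RPKM in KO 2, KO 3 and KO 4, against 14.6, 21.7 and 13.1 RPKM in WT 1, WT 3 and WT 4. One library of each genotype stood high, and the log2 fold change was -0.02 ± 0.23 SE (95% interval -0.53 to 0.49, adjusted p = 0.979), the widest interval of the 8. The relatives of Mrc1 (Mrc2, Pla2r1 and Ly75) were each under 1 RPKM in every library.

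Of 19 macrophage and monocyte markers 13 were under 1 RPKM in every library, and Siglec1 and Vsig4 were listed at 0 throughout. The whole list summed to 68.7 to 131 RPKM in KO and 231 to 256 RPKM in WT. Of 4 markers tested 1 was called, Fcer1g, lower in KO, against 1.27% of all genes tested (lost in 1 of 18 alternatives, at 0.0793 with genes of any level tested). Fcer1g lies on chromosome 1 (171229572 to 171234349), close to Fcgr2b (170960558 to 170976071), which was also called lower. Whether these calls are separate was not tested. Without Fcer1g the list summed to 13.3 to 16.1 RPKM in KO and 15.7 to 27.8 RPKM in WT. Mrc1 was at 16.3 ± 4.79 RPKM in KO and 16.5 ± 4.60 RPKM in WT. Such sums do not measure macrophage content, and the part of macrophages in the level of Mrc1 was not tested. Other receptors that macrophages carry were also near 0, with Marco at 0.0264 ± 0.0248 RPKM in KO and 0.101 ± 0.0415 RPKM in WT and Cd163 at 0.0700 ± 0.0295 RPKM in KO and 0.136 ± 0.0435 RPKM in WT.

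Cxcl16, the class G receptor, is a membrane-bound chemokine that takes up oxidised lipoprotein and, once shed, attracts lymphocytes bearing Cxcr6 (gene ID 66102, chromosome 11, 70454389 to 70459984). It had 159, 150.0 and 155 RPKM in KO 2, KO 3 and KO 4, against 119.9, 133 and 141 RPKM in WT 1, WT 3 and WT 4. Every KO library lay above every WT library, by a small margin. The log2 fold change of 0.24 ± 0.09 SE (95% interval 0.03 to 0.44) was not called (adjusted p = 0.257, unadjusted p = 0.0280), and it was 0.11 when libraries were centred on the pan-endothelial genes (adjusted p = 0.865; 0.0568 to 0.865 over 18 alternatives). Of the sheddases that release it, Adam10 was at 33.4 ± 7.33 RPKM in KO and 34.0 ± 8.07 RPKM in WT and Adam17 at 33.5 ± 2.07 RPKM in KO and 34.3 ± 2.77 RPKM in WT, neither called (adjusted p = 0.969 and 0.905). Cxcr6 was at 0.0744 RPKM in KO 2 and at 0 in the other five libraries.

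Lrp1, the large class L receptor for protease and inhibitor complexes, remnant lipoproteins and dying cells (gene ID 16971, chromosome 10, 127538157 to 127621148), was barely expressed. It had 1.01, 0.711 and 0.467 RPKM in KO 2, KO 3 and KO 4, against 0.541, 0.718 and 0.503 RPKM in WT 1, WT 3 and WT 4, from 284 to 746 reads in KO and 336 to 541 reads in WT. The groups overlapped and the gene was too low for the test used here, while the authors' deposited table gives a log2 fold change of 0.271 with an adjusted p of 0.68. Its chaperone Lrpap1, which folds receptors of this family, was at 112 ± 4.19 RPKM in KO and 114 ± 9.64 RPKM in WT (adjusted p = 0.943).

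The order of levels was the same in both genotypes, Cd36, Scarb1, Stab2, Cxcl16, Scarf1, Scarb2, Colec12, Mrc1, Lrp1 and Msr1. In KO the ranges over the 3 libraries kept all neighbours apart except Colec12 and Mrc1. In WT the neighbours from Scarb1 to Scarf1 overlapped and so were not separated, while Cd36 stood above them and Scarb2 below. Cd36, Scarb1, Stab2, Cxcl16 and Scarf1 were all above the 92nd percentile of genes tested in both genotypes, at 93.6 to 99.5 in KO and 92.9 to 99.8 in WT. The 10 genes summed to 1416 to 1727 RPKM in KO and 1498 to 2044 RPKM in WT, and without Cd36 to 736 to 809 RPKM in KO and 582 to 825 RPKM in WT.

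The genes whose pattern over the 6 libraries was most like that of Stab2 were Zfp251, Amotl1 and Zfp521 (r = 0.997, 0.993 and 0.991), and for Cd36 they were Prokr2, Dis3 and Ero1l (r = 0.994, 0.993 and 0.992). For Cxcl16 they were Fyn, Abcg1 and Pramef8 (r = 0.991, 0.991 and 0.983). With 6 libraries close matches are common, and 95, 117 and 52 genes correlated above 0.95 with Stab2, Cd36 and Cxcl16 in that order.

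Scavenger and endocytic receptors outside the 10 held calls that the 10 did not. Of 45 such genes, from lists of other scavenger receptors, relatives of Lrp1 and relatives of Mrc1, 17 were tested, 2 were lower in KO (against 1.27% of all genes tested), and their median log2 fold change was -0.02. Without adjustment 6 of the 17 had a p under 0.05 in limma, against 15.7% of all genes. These lists were chosen with earlier results of these data known, so the contrast with the 10 or with all genes is not a test. Clec4g, a lectin of sinusoidal endothelium, fell to 662, 618 and 815 RPKM in KO 2, KO 3 and KO 4, against 1541, 1797 and 1612 RPKM in WT 1, WT 3 and WT 4 (log2 fold change -1.25 ± 0.12 SE, adjusted p = 0.00106; at most 0.0268 over 18 alternatives). Fcgr2b, an Fc receptor that removes small immune complexes, fell to 23.1, 22.1 and 15.7 RPKM in KO 2, KO 3 and KO 4, against 169.9, 135 and 63.9 RPKM in WT 1, WT 3 and WT 4 (log2 fold change -2.47 ± 0.31 SE, adjusted p = 0.00455; 2.12e-05 to 0.0603 over 18 alternatives, lost when genes of any level were tested). In WT Clec4g was thus above Cd36, and in KO their ranges overlapped.

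Lrp10, a relative of Lrp1 in the Golgi and endosomes, was at 118 ± 12.3 RPKM in KO and 92.1 ± 15 RPKM in WT (adjusted p = 0.238), and Lrp3 at 8.08 ± 1.57 RPKM in KO and 5.55 ± 1.68 RPKM in WT (adjusted p = 0.292). Scara3, a class A relative, was at 5.64 ± 0.752 RPKM in KO and 8.62 ± 2.53 RPKM in WT (adjusted p = 0.246). Lyve1, a hyaluronan receptor related to Cd44, was too low to test, at 0.566 ± 0.342 RPKM in KO and 1.33 ± 0.727 RPKM in WT.

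Ligands and partners of the receptors were examined as a group of 43 genes, of which 32 were tested. Of these 1 fell and 0 rose, against 1.27% and 0.671% of all genes tested, 3 had an unadjusted p under 0.05 in limma, against 15.7%, and the median log2 fold change was 0.03. The gene that fell was Tfpi, a coagulation inhibitor that Lrp1 clears, with 315, 279 and 380.0 RPKM in KO 2, KO 3 and KO 4, against 595, 468 and 752 RPKM in WT 1, WT 3 and WT 4 (log2 fold change -0.88 ± 0.17 SE, adjusted p = 0.0328). This call was fragile. It ended when WT 1, WT 4, KO 2 or KO 3 was left out (adjusted p = 0.074, 0.0846, 0.116 and 0.153), when genes of any level were tested (0.165), when GC and length trends were taken out (0.0549) and when libraries were centred on pan-endothelial genes (0.0956). Among partners of Stab2, Hyal2, a hyaluronidase of the cell surface, was at 271 ± 31.3 RPKM in KO and 239 ± 22.1 RPKM in WT (adjusted p = 0.45), and Hyal3 at 0.987 ± 0.147 RPKM in KO and 1.60 ± 0.113 RPKM in WT (adjusted p = 0.232).

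Partners of the class B receptors gave 0 calls among 14 tested in limma and 0 at an unadjusted p under 0.05, against 1.94% and 15.7% of all genes tested. Pdzk1, the scaffold that holds Scarb1 at the membrane in mouse liver, was at 2.55 ± 0.295 RPKM in KO and 1.82 ± 0.226 RPKM in WT (adjusted p = 0.317). Abcg1, a cholesterol exporter, was at 8.63 ± 0.507 RPKM in KO and 6.92 ± 0.834 RPKM in WT (adjusted p = 0.345), and Thbs2, a thrombospondin, at 3.34 ± 0.478 RPKM in KO and 2.41 ± 0.484 RPKM in WT (adjusted p = 0.338). Gpihbp1, which anchors lipoprotein lipase on capillary endothelium, was at 794 ± 50.8 RPKM in KO and 740.4 ± 111 RPKM in WT (adjusted p = 0.681).

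**Figure D4:**
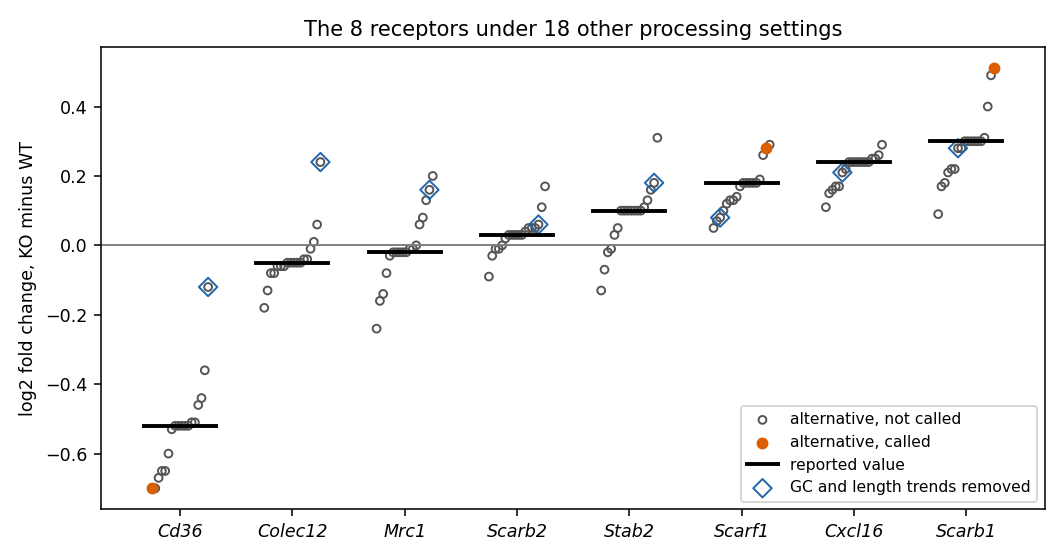
Log2 fold change (KO minus WT) of the 8 receptors tested as reported (black line) and under 18 other processing settings (circles; orange where called; blue diamonds mark removal of GC and length trends). Only quality weights, which leaned mostly on WT 4 and KO 2, give calls (Cd36, Scarb1 and Scarf1). The value of Cd36 lies between -0.70 and -0.12.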

How the data were processed

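The authors deposited one normalized table for the whole series and their own comparison tables. Per the submitters' processing notes, the tools were STAR 2.5.2b, edgeR, limma and Subread, on mm10 (GRCm38); their order and settings are not given in the sources used here. The header names no unit. The deposited values were read as RPKM. In all 14129 genes above 0 in every library they are whole multiples of 1 read's worth (tolerance 0.001), which also gave reads and depth. This alone would fit any linear scaling of reads. The gene lengths implied by 1 read's worth correlated with GENCODE transcript length (Spearman 0.83 over 10109 genes), which is why a per-length unit was taken. The authors' table holds log2 fold changes and p-values for 13742 genes, per the file headers. The kit (SMART-Seq with Nextera XT, per the labels' protocols) does not mark strand. Columns name a genotype and a number unlike the labels' replicate numbers, so they were assigned by genotype alone.

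The 11035 genes that reached 1 RPKM in 3 or more of the 6 libraries were fitted as log2(RPKM + 0.5) with limma 3.58.1 in R 4.3.3 (trended variance), which was tested on simulated data. Coordinates, promoters (5 of 10 receptors matched) and names came from RefSeq GRCm38.p6, and GC content and length from the longest GENCODE transcript (10109 genes). Named genes are Stab1, the 10 receptors, called genes and up to 4 of smallest p per list; others were added for their role or after their values were seen. Receptors and lists were chosen with earlier results of these data known. Some genes of the related lists are not reported here and were left out of the counts over those lists, but not out of the fit. Alternatives varied the pseudocount, filter, normalization, variance model, GC and length trends, replicate block and libraries left out. Python 3.11.15 and matplotlib 3.10.9 drew the figures.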

Additional observations from a re-analysis of the deposited data

How the results depend on the processing

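Over 18 alternatives, 144 values of the 8 receptors tested gave 124 with the same direction and side of the threshold, 17 with the opposite direction and 3 newly called. The library quality weights ran from 0.336 (WT 1) to 4.19 (WT 4), and the fit with them leaned mostly on WT 4 and KO 2. Library quality weights gave 3653 calls over all genes against 214 as reported, 3 calls among the receptors (Cd36 -0.70, Scarb1 0.51 and Scarf1 0.28), 8 among other scavenger receptors, 12 among ligands and partners, 6 among apoptotic cell uptake genes and 6 among transcription factors; they turned Stab2 to -0.01, Colec12 to 0.01 and Mrc1 to 0.08. With no filter on low values 77 genes were called, 1 of the other scavenger receptors and 0 ligands or partners (6 at an unadjusted p under 0.05 in limma). Removal of GC and length trends left 0 calls among ligands and partners (7 at an unadjusted p under 0.05 in limma) and turned Colec12 to 0.24 and Mrc1 to 0.16. Median centring gave 1 call among transcription factors, Srebf1. Quantile normalization turned Scarb2 to -0.01. Centring on pan-endothelial genes, chosen after seeing the data, gave 122 calls and turned Stab2 to -0.02 and Scarb2 to -0.09. A replicate block on the numbers in the column names gave 355 calls and turned Stab2 to -0.07 and Scarb2 to -0.01; only numbers 3 and 4 occur in both genotypes and nothing says that they pair the libraries. Leaving out 1 library at a time gave 56 (without KO 3) to 418 calls (without KO 4), with 93 without WT 4 and 83 without KO 2, 0 to 1 calls among ligands and partners, and log2 fold changes of -0.13 to 0.31 for Stab2, -0.03 to 0.11 for Scarb2, -0.13 to 0.06 for Colec12, -0.24 to 0.20 for Mrc1, 0.18 to 0.49 for Scarb1, 0.10 to 0.29 for Scarf1, 0.17 to 0.29 for Cxcl16 and -0.70 to -0.36 for Cd36. The cause of these shifts was not tested. At this depth Msr1 rests on 1 read in KO and 9 in WT libraries in all.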

Other observations

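Genes for the uptake of dying cells, a task that Stab2 and several of the other receptors share, gave no call beyond Stab1. Of 24 such genes 16 were tested, and the 1 called was Stab1 itself, against 1.94% of all genes tested; groups did not overlap for 4 of the 16. Gulp1, an adaptor that binds the tail of stabilin-2, was at 1.75 ± 0.282 RPKM in KO and 2.76 ± 0.545 RPKM in WT (adjusted p = 0.238 in limma). Pros1, a bridging protein, was at 186 ± 13.2 RPKM in KO and 206 ± 3.20 RPKM in WT (adjusted p = 0.419), and Elmo1, which acts in engulfment, at 20.2 ± 0.239 RPKM in KO and 18.2 ± 0.346 RPKM in WT (adjusted p = 0.526). For each of these 3 genes the KO and WT ranges lay apart, as they did for Stab1 and for 20.3% of all genes tested.

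Of 15 transcription factors known to act on scavenger receptor or lipid genes 12 were tested and 0 called in limma (4 at an unadjusted p under 0.05), against 1.94% called and 15.7% under 0.05 among all genes tested. Srebf1 had 28.6, 26.8 and 25.6 RPKM in KO 2, KO 3 and KO 4, against 14.2, 19.0 and 19.4 RPKM in WT 1, WT 3 and WT 4 (log2 fold change 0.62 ± 0.14 SE, adjusted p = 0.0596), and with median centring it was called. Srebf2, a regulator of sterol genes, was at 40.2 ± 6.58 RPKM in KO and 27.8 ± 6.40 RPKM in WT (adjusted p = 0.202). Klf4 was at 29.0 ± 1.5 RPKM in KO and 37.1 ± 4.75 RPKM in WT (adjusted p = 0.206), and Nfe2l2, the oxidative stress factor, at 63.3 ± 7.64 RPKM in KO and 77.1 ± 8.82 RPKM in WT (adjusted p = 0.293).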
